A study of Mus musculus with 10 samples.

Results

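The response of NK cells (NKC) that lack the transcription factor Runx3 to IL-15 or to IL-2 was read from 5 of the 10 arrays of the series, 2 of knockout (KO) NKC kept in IL-15 and 3 of KO NKC kept in IL-2. KO cells carried the genotype Runx3 -/- and wild-type (WT) cells Runx3 +/+, and all came from the spleen of ICR mice, an outbred stock, aged 6 weeks. NKC were enriched by negative selection, and the methods add a sort for DX5. The culture ran for 7 days, in mouse IL-15 or in human recombinant IL-2, the latter given at 1000 u/ml. The deletion was present in the whole animal and not in NKC alone, and the cytokine was of human origin in the IL-2 arm and of mouse origin in the IL-15 arm. Of 18194 genes with a probe set of 1 gene symbol, 9391 reached log2 5 in at least 2 of the 10 arrays, 281 of them lay on chromosome X or Y and were left out, and 9110 were compared between the 2 cultures. Levels are log2 signals of 1 probe set per gene, and differences are IL-15 minus IL-2, in log2 units, with the standard error (SE) of the fit over 2 and 3 arrays.

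IL-2 and IL-15 are related cytokines that both signal in NKC through the IL-2 receptor beta chain and the common gamma chain, with JAK1 and JAK3 as kinases and STAT5 as the main transcription factor. Each has an alpha chain of its own, and that of IL-2 turns a receptor of intermediate affinity into one of high affinity. NKC grown in either cytokine divide and fill their granules with perforin and granzymes, the proteins with which they kill target cells.

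Several facts of the arrays bear on every value below. The 2 cultures came from different mice that also differed in sex-linked transcripts: Xist, the RNA of the inactive X chromosome, had a mean of 14.56 in KO cells in IL-15 and 4.91 in IL-2, and the Y-linked Eif2s3y had means of 2.36 and 7.88. Cytokine, animals and sex therefore cannot be told apart. Within a culture, adding the WT value of a numbered pair to its KO value gave the same sum for every pair, to within 0.00014 for each probe set, so whatever the pairs differed in as a whole had been taken out before deposit. This leaves the difference between KO group means as it was but narrows the spread of the KO arrays. The test was therefore repeated with the residual variance doubled, and a dagger (†) after a difference marks a gene that was called but lost its call in this repeat. Doubling makes up for the narrowing only where the WT and KO arrays of a pair varied alike and shared no variation. Calls without a dagger can therefore still rest on too small a spread. The removal also makes each KO array deviate from its group mean by the opposite of its WT partner's deviation. Where an array is said below to stand apart within its culture, the values do not show whether that array or its WT partner differed. KO arrays of one culture correlated at r = 0.973 to 0.984 over the tested genes and KO arrays of the different cultures at r = 0.860 to 0.902.

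The cells carried the transcripts that mark NKC in both cultures. Of 18 listed NKC markers, 17 had a named probe set and 16 had group means of log2 5 or more under either cytokine, among them Ncr1 (NKp46), at 12.36 and 11.82 in IL-15 against 11.80, 11.16 and 12.12 in IL-2, and the lineage factor Eomes, at 13.20 and 13.15 in IL-15 against 13.09, 12.86 and 12.54 in IL-2. Itga2, which encodes the DX5 integrin chain, was the exception, at 2.45 and 2.44 in IL-15 and 2.23, 2.24 and 2.18 in IL-2. Markers of other cells were partly present. Cd79a and Pax5 of B cells, C1qa of macrophages, Mpo of granulocytes and Cd8a of T cells stayed under log2 5 in every KO array. Means of log2 5 or more were found in both cultures for 10 of 16 T cell markers. In each culture 9 of 18 markers of dendritic cells and MHC class II reached this level, with Fscn1 among the 9 only in IL-15 and Batf3 only in IL-2. Of 18 macrophage markers, 6 (IL-15) and 5 (IL-2) reached it. Bright among the markers of these lists were Cd3g, at 7.17 and 9.09 in IL-15 against 7.42, 8.75 and 8.38 in IL-2, H2-Ab1, at 7.80 and 8.65 against 6.52, 9.69 and 8.19, and Cd68, at 6.86 and 7.43 against 7.30, 9.03 and 7.99, whose arrays overlapped. The B cell list reached this level only with Ighm (10.72 to 11.66) and, in IL-2, Blk. Runx3 itself read 11.41 and 11.35 in IL-15 against 11.41, 11.15 and 10.66 in IL-2 in KO cells and 12.45 and 12.51 in IL-15 against 11.31, 11.57 and 12.06 in IL-2 in WT cells, so that the genotypes overlapped in IL-2. Whether this probe set lies inside the deleted part is not given in the sources used here.

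The 2 cultures differed in a large part of the transcriptome. With limma (Benjamini-Hochberg adjusted p under 0.05, a change of at least 1.5-fold and at least 1 group mean of log2 5 or more), 3992 of 9110 genes (43.8%) were called. Of these, 2050 (22.5%) were higher and 1942 (21.3%) were lower in IL-15. Doubling the residual variance left 2098 (23%), with 1242 (13.6%) higher and 856 (9.4%) lower. Large changes leaned to one side: 601 genes (6.6%) were at least 4-fold higher and 242 (2.66%) at least 4-fold lower in IL-15. The extremes leaned to the other side, with 2 genes higher and 9 lower by 5 log2 units or more. The median difference of all genes was -0.09, and the split moved to 1887 higher and 2601 lower under quantile normalization, where this median was -0.22. Arrays of the 2 cultures did not overlap for 6203 genes (68.1%). Without IL-15 array 1 the counts were 1235 higher and 1032 lower, and without IL-15 array 2 they were 1340 and 869. The counts of each gene group below stand against these shares of all genes, 22.5% higher and 21.3% lower, or 13.6% and 9.4% with the variance doubled.

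The genes that stood highest in IL-15 were of several kinds, among them surface receptors, signalling proteins and transcription factors. Il7r, the alpha chain of the IL-7 receptor, was measured at 9.98 and 9.81 in IL-15 against 5.73, 4.81 and 5.65 in IL-2, a difference of 4.50 ± 0.31 (22.6-fold, adjusted p = 0.000708). Its 2 IL-15 arrays lay close together and far above all IL-2 arrays. Inpp4b, a lipid phosphatase that removes a product of PI3K, read 10.45 and 10.05 in IL-15 against 6.06, 4.82 and 5.73 in IL-2 (4.71 ± 0.38, 26.2-fold). Rora, a nuclear receptor of innate lymphoid cells, was detected at 11.53 and 10.58 in IL-15 against 6.78, 5.41 and 6.97 in IL-2 (4.67 ± 0.52, 25.5-fold). The estrogen receptor gene Esr1 followed with 10.41 and 10.12 in IL-15 against 6.14, 5.13 and 5.49 in IL-2 (4.68 ± 0.32, 25.6-fold). For these genes the lowest IL-15 array exceeded the highest IL-2 array by several log2 units.

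Cd200r4, of the CD200 receptor family, had the greatest difference of the genes higher in IL-15 (5.63 ± 0.94, 49.4-fold, adjusted p = 0.00412), but its IL-15 arrays were far apart, with 13.37 and 9.70 in IL-15 against 6.13, 5.95 and 5.65 in IL-2. Padi4, which converts arginine to citrulline in proteins, read 7.80 and 7.76 in IL-15 against 3.05, 2.99 and 1.13 in IL-2 (5.39 ± 0.57, at least 6.86-fold), with a single IL-2 array below the rest. The Arf GTPase-activating protein Arap2 (4.62), the HMG box gene Bbx (4.53), the retroelement silencing factor Resf1 (4.48) and the helicase Dhx36 (4.43) were higher by similar amounts. The IL-2 means of Bbx (4.90) and Dhx36 (4.93) were just under log2 5. The 15 highest genes ended with the chaperone Hspa13 (4.16), Klhl24 (4.14), the paracaspase Malt1 (4.14), Zmym5 (4.03) and Lyst (4.01), the regulator of lysosome size that is mutated in beige mice. Among the 15 genes the adjusted p of Cd200r4 was the highest.

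**Figure D1:**
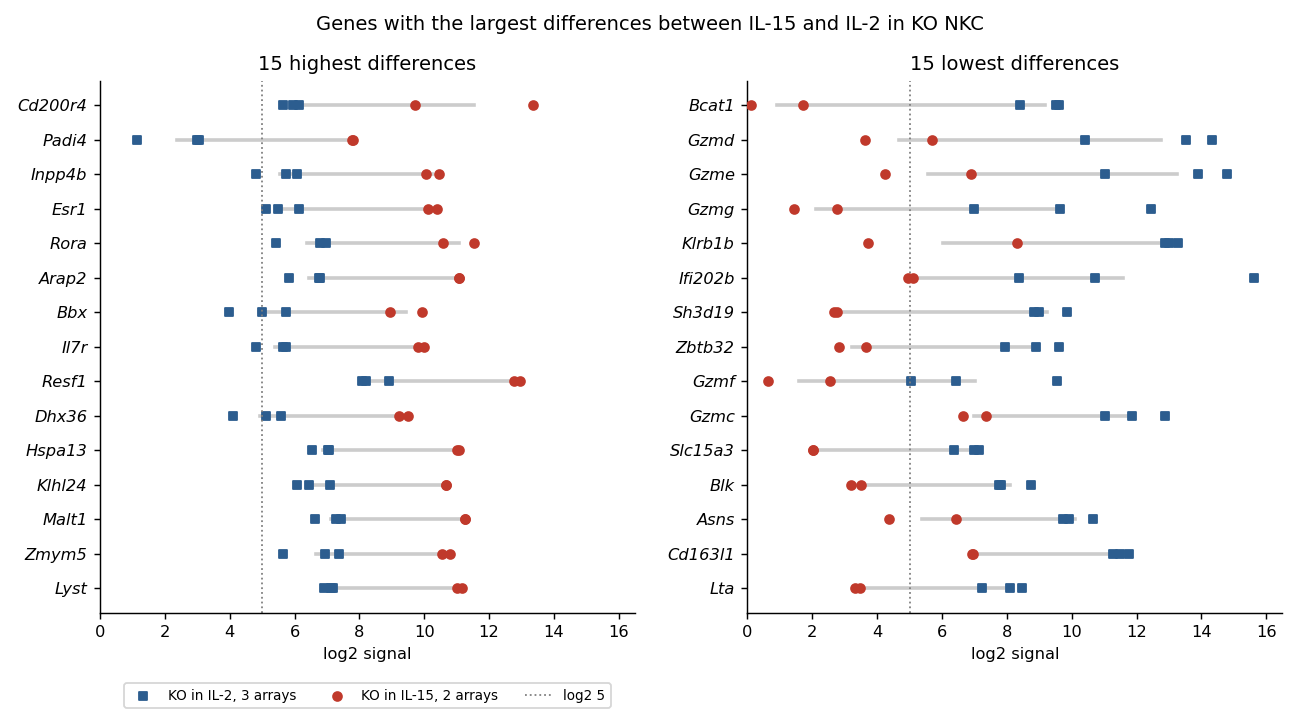
Log2 signal (x axis) of the 15 genes with the highest and the 15 with the lowest differences in KO NKC, 1 point per array (circles IL-15, squares IL-2), with a grey line between group means and a dotted line at log2 5. The circles and squares of a gene do not overlap, which the choice of genes fixed. The wide gaps between the IL-2 arrays of Ifi202b (8.38 to 15.62) and Gzmf (5.03 to 9.54) and between the IL-15 arrays of Cd200r4 show where arrays of one culture differed widely.

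At the other end stood a metabolic enzyme and a block of granzymes. Bcat1, the cytosolic enzyme that starts the breakdown of branched-chain amino acids, was measured at 1.71 and 0.12 in IL-15 against 8.40, 9.61 and 9.53 in IL-2, a difference of -8.27 ± 0.55 (at least 18.1-fold lower in IL-15; adjusted p = 0.000708). Its IL-15 arrays were at the floor of the scale, so the fold is a lower limit taken against log2 5. Zbtb32, a zinc finger repressor of lymphocytes, read 2.82 and 3.64 in IL-15 against 7.93, 9.61 and 8.89 in IL-2 (-5.57 ± 0.50, at least 14.0-fold lower), and the cytokine gene Lta (lymphotoxin alpha) read 3.48 and 3.32 in IL-15 against 7.23, 8.47 and 8.09 in IL-2 (-4.53 ± 0.37, at least 7.62-fold lower). Both were under log2 5 in every IL-15 array and above 7 in every IL-2 array.

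Other genes among the 15 lowest were uneven between arrays. The receptor gene Klrb1b was measured at 3.73 and 8.31 in IL-15 against 13.28, 13.00 and 12.87 in IL-2 (-7.03), with IL-15 arrays more than 4 log2 units apart and both below all IL-2 arrays. The interferon-inducible Ifi202b read 4.94 and 5.09 in IL-15 against 8.38, 10.73 and 15.62 in IL-2 (-6.56†, adjusted p = 0.0269), with IL-2 arrays more than 7 units apart. By contrast, Sh3d19 (2.66 and 2.78 in IL-15 against 9.85, 8.85 and 8.99 in IL-2), the peptide transporter Slc15a3 (2.01 and 2.03 in IL-15 against 6.38, 6.97 and 7.14 in IL-2), the Src family kinase Blk (3.18 and 3.51 in IL-15 against 7.81, 7.75 and 8.75 in IL-2) and the scavenger receptor Cd163l1 (6.93 and 6.95 in IL-15 against 11.28, 11.50 and 11.77 in IL-2) were tight within each culture. Their differences were -6.51, -4.81, -4.76 and -4.58.

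Receptor chains through which the cytokines act were examined next. Il2ra (CD25), the alpha chain of the IL-2 receptor, was lower in IL-15, at 7.85 and 6.95 in IL-15 against 9.48, 9.60 and 9.81 in IL-2 (-2.23 ± 0.30, 4.69-fold lower; adjusted p = 0.00202). The IL-21 receptor gene Il21r was lower too, at 5.32 and 4.89 in IL-15 against 7.84, 7.73 and 7.85 in IL-2 (-2.71 ± 0.21, 6.53-fold lower). Neither gene had overlapping arrays. Il15ra, the alpha chain of the IL-15 receptor, was measured at 5.98 and 5.84 in IL-15 against 5.73, 6.05 and 5.95 in IL-2, a difference of 0.00 ± 0.20 (adjusted p = 0.998), and the shared beta chain Il2rb at 11.50 and 11.14 in IL-15 against 12.07, 11.96 and 11.13 in IL-2, a difference of -0.40 ± 0.32 (adjusted p = 0.351). The arrays of both overlapped, as did those of Il4ra (0.13 ± 0.24) and Crlf2 (-0.16 ± 0.20). Another bright probe set of Il2rb, not the one that stood for the gene, had means of 7.56 in IL-15 and 8.85 in IL-2 (-1.30). Of the 12 listed genes, 7 were tested and, with Il7r, 1 was higher and 2 were lower. Il2, Il15, Il9r and Tslp were too dim, and the common gamma chain Il2rg was not named by a probe set of 1 symbol.

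Downstream of the receptors, genes were called in both directions. Jak2, a kinase of many cytokine receptors, was measured at 11.56 and 11.39 in IL-15 against 8.92, 8.36 and 8.77 in IL-2 (2.79 ± 0.23, 6.92-fold higher). Stat4, which transmits IL-12 signals, read 12.36 and 12.26 in IL-15 against 10.19, 10.13 and 9.39 in IL-2 (2.41 ± 0.29, 5.31-fold higher), and Jak1, the kinase that IL-2 and IL-15 share, read 12.73 and 12.47 in IL-15 against 10.86, 10.58 and 10.75 in IL-2 (1.87 ± 0.20, 3.65-fold higher). All IL-15 arrays of these 3 genes lay well above all IL-2 arrays. The phosphatase gene Ptpn2 (1.24 ± 0.21) and the STAT inhibitor Pias1 (0.75 ± 0.22†) were higher as well.

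Cish, a target of STAT5 that restrains cytokine signals, was lower in IL-15, at 10.96 and 10.27 in IL-15 against 12.11, 12.39 and 12.05 in IL-2 (-1.57 ± 0.26, 2.96-fold lower; adjusted p = 0.00427). Stat5a itself read 7.98 and 7.72 in IL-15 against 9.43, 8.97 and 8.81 in IL-2 (-1.22 ± 0.25, 2.33-fold lower), whereas its paralog Stat5b was measured at 10.48 and 10.61 in IL-15 against 10.89, 10.83 and 10.33 in IL-2 (-0.14 ± 0.24, adjusted p = 0.652). The phosphatase Ptpn6 (-1.28 ± 0.30†) and the kinase Pim3 (-1.13 ± 0.26†) were also lower. Differences of Pim1 (-0.57 ± 0.25), Tyk2 (-0.33 ± 0.23), Jak3 (-0.31 ± 0.28), Stat3 (-0.30 ± 0.24), Stat6 (0.02 ± 0.22), Socs2 (0.27 ± 0.33), Ptpn11 (0.32 ± 0.23) and Socs3 (0.36 ± 0.26) did not pass the test. The probe sets of Stat3 disagreed, at -0.30, 0.01 and 2.12. In all, 5 of 18 tested genes of this list were higher (27.8%) and 4 were lower (22.2%), shares close to the 22.5% and 21.3% of all genes, and 4 and 2 remained called with the variance doubled. The list median was -0.06 against -0.09 over all genes.

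**Figure D2:**
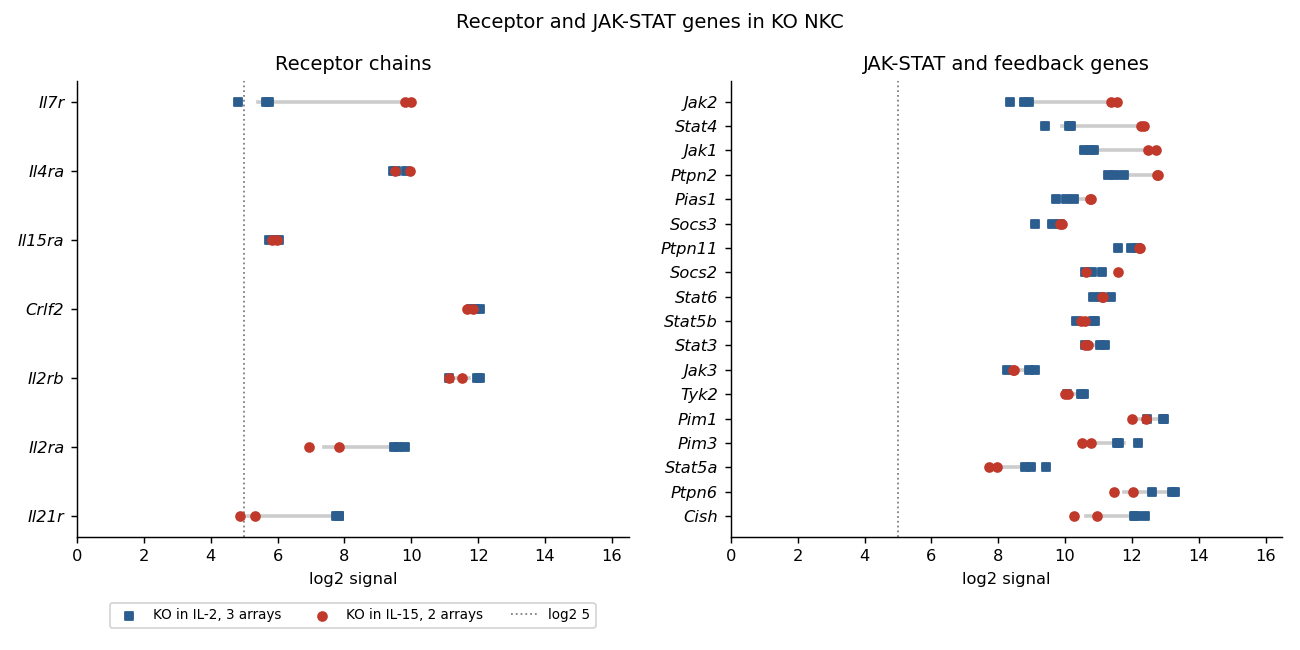
Log2 signal (x axis) of the 7 tested receptor chain genes and the 18 tested JAK-STAT and feedback genes in KO NKC, 1 point per array (circles IL-15, squares IL-2), with a grey line between group means and a dotted line at log2 5. Il7r and Jak2 lay to the right in IL-15, Il2ra, Il21r and Cish to the left, and the circles of Il15ra, Il2rb and Stat5b fell among the squares.

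Genes of cytotoxic granules differed by family member. Granzymes D, E, G, F and C, which are encoded in one cluster, were far lower in IL-15. Gzmd was measured at 3.62 and 5.71 in IL-15 against 13.52, 14.34 and 10.43 in IL-2 (-8.10 ± 1.16, at least 217-fold lower; adjusted p = 0.00254) and Gzmc at 6.65 and 7.35 in IL-15 against 11.85, 12.89 and 11.03 in IL-2 (-4.93 ± 0.53, 30.4-fold lower). For both genes IL-2 array 3 was the lowest of its culture and still exceeded either IL-15 array. Gzme (-7.67 ± 1.20), Gzmg (-7.58 ± 1.41) and Gzmf (-5.41 ± 1.25†) had the same IL-2 array lowest, and the call of Gzmf was lost with the variance doubled. The IL-15 means of Gzmg (2.11) and Gzmf (1.595) were under log2 5. Cathepsin G (Ctsg), a neighbour of this cluster in mice, read 1.07 and 1.73 in IL-15 against 4.56, 7.02 and 4.28 in IL-2 (-3.89, at least 1.22-fold lower).

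Granzymes A and B, the main granzymes of NKC, were not called. Gzma was between 15.89 and 16.14 in all 5 arrays, a difference of -0.01 ± 0.19, and Gzmb was at 15.34 and 15.19 in IL-15 against 15.60, 15.58 and 15.50 in IL-2, a difference of -0.30 ± 0.18. Both lay near log2 16, the highest reading of a 16 bit scanner, so a difference in these genes could be compressed. Perforin (Prf1) was lower in IL-15, at 12.14 and 12.13 in IL-15 against 12.97, 13.65 and 12.75 in IL-2 (-0.99 ± 0.29†, 1.98-fold lower; adjusted p = 0.0326). Gzmk (-1.82) and Cst7 (-0.82†), an inhibitor of granule cathepsins, were lower, and Ctsc, the cathepsin that activates granzymes, was higher (0.62 ± 0.20†). Of 21 tested granule genes, 1 was higher (4.76%) and 10 were lower (47.6%), or 0 and 6 with the variance doubled, with a list median of -0.39.

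Genes of granule transport were more often higher. Of 18 tested members, 7 were higher (38.9% against 22.5% of all genes) and 1 was lower (5.56% against 21.3%), or 5 and 0 with the variance doubled. The median genomic span of the 7 higher members was 108.5 kb, and long genes ran higher over all genes (median 45.9 kb for all genes higher and 13.3 kb for all genes lower). The list median was 0.27, and 0.30 when read against genes of similar span as described below. The part of span was not tested. Besides Lyst, the highest were the kinesin heavy chain Kif5b (2.42 ± 0.29), the Rab27 effector Sytl2 (2.27 ± 0.22), the SNARE protein Snap23 (2.15 ± 0.20), the adaptor subunit Ap3b1 (1.41) and the GTPase Rab27b (6.44 and 6.77 in IL-15 against 5.29, 5.80 and 4.79 in IL-2, 1.31†). The priming factor Unc13d was lower (-0.98 ± 0.29†). Rab27a was measured at 10.85 and 10.70 in IL-15 against 10.59, 10.32 and 10.59 in IL-2, a difference of 0.28 ± 0.20 that did not pass the test.

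Secreted signals were more often lower than higher in IL-15. Of 8 tested chemokines, 6 were lower (75%) and 0 were higher, or 5 and 0 with the variance doubled, and the list median was -2.23. Ccl3, which attracts monocytes and T cells, was measured at 12.15 and 11.79 in IL-15 against 14.15, 13.87 and 13.94 in IL-2 (-2.02), and the related Ccl4 read 8.51 and 8.93 in IL-15 against 10.73, 11.05 and 11.50 in IL-2 (-2.37, adjusted p = 0.00141). Xcl1, a ligand for cross-presenting dendritic cells, read 11.27 and 10.10 in IL-15 against 12.79, 12.29 and 13.51 in IL-2 (-2.18†, adjusted p = 0.00955). No IL-15 array of these 3 genes reached an IL-2 array. Ccl1 (-4.27), Ccl9 (-3.34) and Cxcl10 (-2.29) were lower too, with IL-15 means under log2 5 for Ccl1 (4.345) and Ccl9 (4.73). Ccl5 was at 14.13 and 14.51 in IL-15 against 15.27, 14.10 and 14.15 in IL-2 and did not pass the test. The other 10 listed chemokines were too dim.

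Among cytokines and TNF family ligands, Ifng was measured at 10.99 and 10.36 in IL-15 against 11.85, 11.82 and 11.48 in IL-2 (-1.05 ± 0.26†, 2.07-fold lower; adjusted p = 0.0172) and Tnf at 7.63 and 6.29 in IL-15 against 8.78, 8.83 and 9.20 in IL-2 (-1.98 ± 0.40, 3.93-fold lower). Csf2 (-1.24), Mif (-1.29) and Il17a (-2.08†, at least 1.54-fold lower) were lower as well, and Tgfb3 was higher (2.17 ± 0.26), which made 1 higher and 4 lower of 10 tested cytokines (1 and 2 with the variance doubled). The IL-15 mean of Csf2 (4.16) was under log2 5. Of 10 tested TNF family and death ligands, Lta, Tnf, Tnfsf9 (-1.09†) and Tnfsf4 (-0.94†) were lower (40%, or 2 genes with the variance doubled) and 0 were higher. Fasl had a difference of 0.67 ± 0.25 and Tnfsf10 (TRAIL) one of -0.28 ± 0.37, neither called.

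Receptors for other cytokines were called in both directions. Both chains of the IL-18 receptor were higher in IL-15: Il18rap was measured at 13.38 and 13.04 in IL-15 against 10.01, 9.58 and 10.21 in IL-2 (3.28 ± 0.26, 9.69-fold) and Il18r1 at 13.07 and 12.74 in IL-15 against 10.13, 10.02 and 10.56 in IL-2 (2.67 ± 0.24, 6.36-fold). The TGF-beta receptor genes Tgfbr1 (2.85 ± 0.39) and Tgfbr2 (0.86 ± 0.23†), the interferon receptor genes Ifnar1 (1.48) and Ifngr1 (1.17) and Kit (1.04†) were higher too. Lower were Il12rb1 (-1.33 ± 0.20), a chain of the IL-12 receptor, Il27ra (-0.74†) and Csf2rb (-2.53†, with an IL-15 mean of 4.13, under log2 5). Il12rb2 (-0.85 ± 0.59), Tgfbr3 (1.42 ± 0.62), Ifnar2 (0.14 ± 0.20), Il10ra (0.49 ± 0.30) and Il10rb (0.60 ± 0.23) were not called. In total 7 of 16 tested genes were higher (43.8%) and 3 were lower (18.8%), or 5 and 1 with the variance doubled. In the wider TGF-beta list, 5 of 19 tested genes were higher and 3 lower (26.3% and 15.8%, near the shares of all genes), or 4 and 2 with the variance doubled. The repressor Skil (2.83) and the ubiquitin ligase Smurf2 (1.60) were higher, and Rgcc (-3.14), Tgif2 (-1.62) and Ltbp3 (-1.29†) were lower.

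Many genes of the G1/S transition and DNA replication were lower in IL-15. Of 54 tested members of 56 listed, 31 were lower (57.4% against 21.3% of all genes) and 1 was higher, or 20 and 0 with the variance doubled, and the list median was -0.95. Cdc6, which loads the replicative helicase, was measured at 10.72 and 9.60 in IL-15 against 12.15, 12.36 and 12.95 in IL-2 (-2.32 ± 0.39, 5.01-fold lower; adjusted p = 0.00418). Tk1, a thymidine kinase made in S phase, read 11.05 and 10.36 in IL-15 against 12.61, 12.85 and 13.71 in IL-2 (-2.35 ± 0.38), and the GINS subunit gene Gins2 read 7.99 and 7.5 in IL-15 against 10.11, 10.09 and 11.25 in IL-2 (-2.74 ± 0.40). In each the highest IL-15 array lay below the lowest IL-2 array. The phosphatase Cdc25a (-2.21), Uhrf1 (-2.19), Mcm2 (-2.0), E2f1 (-1.76), E2f7 (-1.72) and cyclin E1 (Ccne1, -1.39) were lower too. The exception was Dbf4, the activating subunit of the Cdc7 kinase, which was higher (0.83 ± 0.23†). D-type cyclins did not pass the test, with -0.23 for Ccnd1, -0.12 for Ccnd2 and -0.41 for Ccnd3.

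E2F factors bind the promoters of many such genes at sites of the form TTTCCCGC, TTTGGCGC, TTTCGCGC or TTTGCCGC. RefSeq promoter windows (GRCm38.p6, 250 bases before to 50 after a start) were searched for these letters on both strands, where the forms can overlap one another. They occurred in 18 of 45 G1/S genes with a window (40%), in 15 of the 30 that were lower in IL-15 and had a window (50%), and in 379 of 7465 tested genes with a window (5.1%). This describes the letters and not binding. The 4 genes with the most negative differences among those with a match before the start, and Mcm5, which held a pair of overlapping matches, give examples, each as 100 bases of its window with the matches in capitals. Each reads 5′ to 3′ along the strand of the gene, which was the plus strand for all.
Cdc6 (chr11:98907968-98908067): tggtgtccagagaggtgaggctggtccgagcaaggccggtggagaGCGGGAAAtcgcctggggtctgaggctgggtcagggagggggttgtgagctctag
Cdc25a (chr9:109875467-109875566): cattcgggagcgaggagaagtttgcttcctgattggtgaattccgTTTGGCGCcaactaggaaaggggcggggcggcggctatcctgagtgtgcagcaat
Uhrf1 (chr17:56304083-56304182): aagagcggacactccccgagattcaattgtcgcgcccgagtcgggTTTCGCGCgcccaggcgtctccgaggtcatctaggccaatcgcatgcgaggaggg
E2f7 (chr10:110745196-110745295): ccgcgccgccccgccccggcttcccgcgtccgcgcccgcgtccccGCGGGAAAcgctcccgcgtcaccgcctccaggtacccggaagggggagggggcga
Mcm5 (chr8:75109313-75109412): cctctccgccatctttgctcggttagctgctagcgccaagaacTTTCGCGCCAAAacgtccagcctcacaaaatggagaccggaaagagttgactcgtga

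Mitotic genes were called in both directions, and about as often as all genes. Of 48 tested members, 14 were higher (29.2%) and 7 were lower (14.6%), 43.8% in all as over all genes, and 5 and 4 remained with the variance doubled. The median was 0.17. Cenpf, a large kinetochore protein, was measured at 10.69 and 10.69 in IL-15 against 6.6, 6.72 and 8.13 in IL-2 (3.53 ± 0.46, 11.6-fold higher), the condensin gene Smc4 at 12.45 and 12.83 in IL-15 against 9.37, 8.97 and 9.86 in IL-2 (3.24 ± 0.30) and the proliferation marker Mki67 at 13.93 and 13.73 in IL-15 against 11.19, 10.85 and 11.97 in IL-2 (2.49 ± 0.34). None of their arrays overlapped between cultures. Cenpe (3.14), Kif11 (2.23†), Ncapg (2.20†) and Top2a (2.16) were higher as well. The kinase Aurkb (-1.38 ± 0.26), the transcription factor Foxm1 (-1.55 ± 0.21), the kinetochore subunit Spc24 (-1.61), separase (Espl1, -1.40), Plk1 (-1.22†) and Cdk1 (-1.06†) were lower. The median genomic span was 34.7 kb for the members that were higher and 12.9 kb for those that were lower.

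Brakes on the cell cycle were also mixed. Of 26 tested genes, 11 were higher (42.3%) and 6 were lower (23.1%), or 9 and 4 with the variance doubled. Cdkn1a (p21) was lower in IL-15, at 10.26 and 11.31 in IL-15 against 12.84, 13.34 and 12.57 in IL-2 (-2.13 ± 0.37, 4.38-fold lower), as were Cdkn2a (-3.12, at least 3.80-fold lower), Cdkn2b (-1.52†) and Gadd45g (-1.93). Cdkn1b (p27), which holds resting cells in G1, was higher, at 11.11 and 10.53 in IL-15 against 9.54, 9.72 and 9.34 in IL-2 (1.29 ± 0.25, 2.44-fold). Trp53inp1 (2.41 ± 0.23), the sestrin Sesn3 (2.27 ± 0.30), Tsc1 (1.57), Rb1 (1.49), Ccng2 (1.37) and Klf4 (1.73†) were higher too. Genes that the study picked on these samples as promoting or inhibiting proliferation are not independent evidence of a direction. Of 11 tested promoters of proliferation, Pik3cg, Rab27b and Kit were higher and Il2ra, Tnfrsf9 (4-1BB, -1.83), Slc16a1 and Myc were lower. Of 5 tested inhibitors, Inpp4b, Runx1 and Tspan32 (0.73†) were higher and 0 were lower, and the bright probe sets of Tspan32 disagreed, at 0.73 and -0.80. With the variance doubled, 1 higher and 4 lower genes were called among the promoters and 1 higher gene among the inhibitors.

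**Figure D3:**
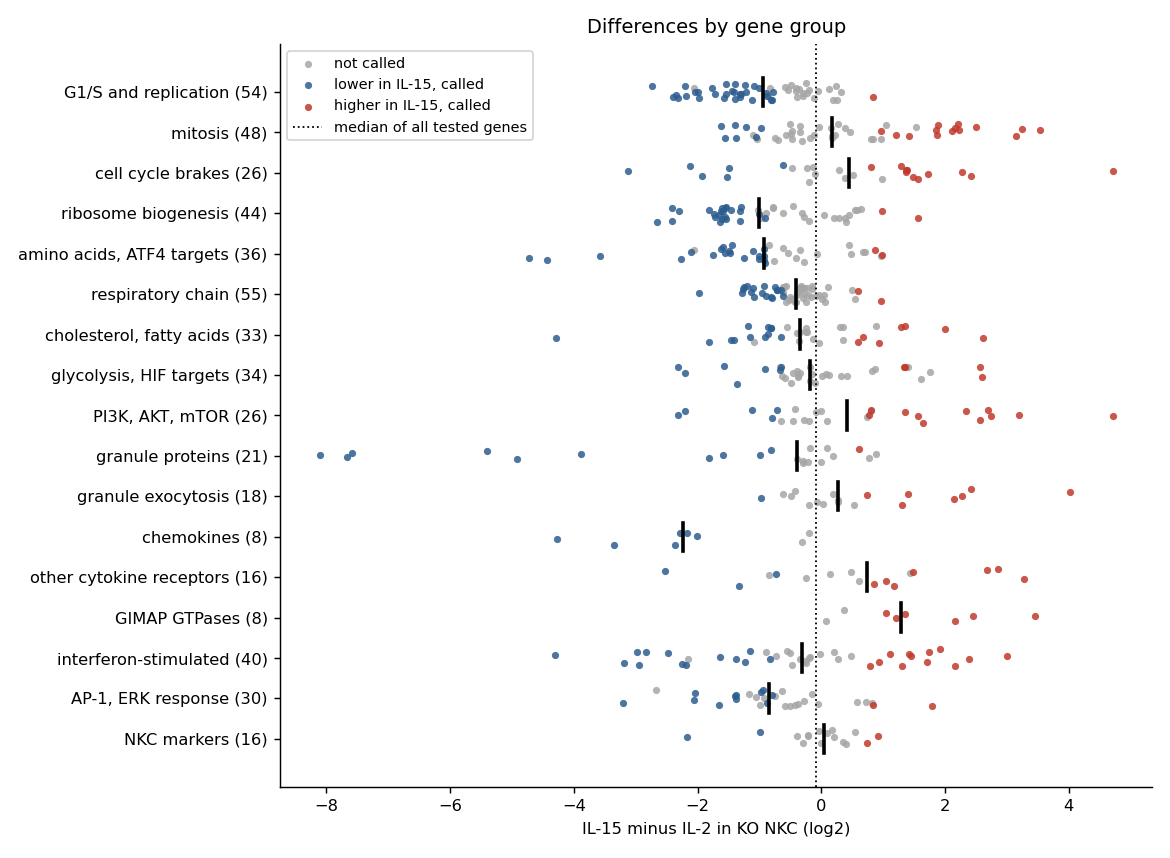
Difference between IL-15 and IL-2 in KO NKC (x axis, log2) for each tested gene of 17 groups, with the number of tested genes in brackets. Points are genes (red higher in IL-15 and called, blue lower and called, grey not called), bars are group medians and the dotted line is the median of all tested genes (-0.09). G1/S, ribosome biogenesis and amino acid genes lay to the left, GIMAP genes to the right, and the mitosis, interferon and PI3K groups reached both sides.

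Many genes for making ribosomes were lower in IL-15. Of 44 tested members, 23 were lower (52.3%) and 2 were higher (4.55%), or 17 and 1 with the variance doubled, with a median of -1.01. Rrp12, which exports ribosomal subunits, was measured at 6.88 and 6.44 in IL-15 against 9.36, 9.16 and 9.44 in IL-2 (-2.66 ± 0.22, 6.32-fold lower; adjusted p = 0.000723), and Polr1b, a subunit of RNA polymerase I, at 8.0 and 7.11 in IL-15 against 9.96, 9.93 and 10.04 in IL-2 (-2.42 ± 0.29). The assembly factors Nop16 (-2.42) and Bysl (-2.30) and the rRNA methyltransferase Fbl (-1.46) were lower too. The abundant nucleolar proteins Npm1 (0.28 ± 0.28) and Ncl (0.54 ± 0.37) were not called, and Wdr43 (0.98†) and the helicase Ddx10 (1.57) were higher. Myc, which drives this programme in growing cells, was lower at 10.85 and 10.80 in IL-15 against 12.28, 11.73 and 11.89 in IL-2 (-1.14 ± 0.23, 2.21-fold lower), as was Mycn at 10.35 and 10.08 in IL-15 against 12.30, 12.44 and 12.01 in IL-2 (-2.04 ± 0.22, 4.11-fold lower). Of the MYC network, 11 genes were tested, of which 2 were higher and 4 lower (1 and 2 with the variance doubled). The antagonists Mxi1 (1.40†) and Mga (1.32) were higher, the antagonist Mxd3 (-0.91†) and Mlx (-0.81†) were lower, and Mxd1 (0.12 ± 0.32), Mxd4 (0.88 ± 0.33) and Mnt (0.34 ± 0.28) were not called.

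Amino acid supply genes were also lower more often than higher. Of 36 tested genes for amino acid synthesis and transport or known as targets of ATF4, the factor of the amino acid response, 20 were lower (55.6%) and 2 were higher (5.56%), or 12 and 0 with the variance doubled, with a median of -0.93. Asparagine synthetase (Asns) was measured at 4.36 and 6.42 in IL-15 against 9.74, 10.65 and 9.93 in IL-2 (-4.72 ± 0.59, 26.3-fold lower; adjusted p = 0.00165). Slc7a5, the light chain of the large neutral amino acid transporter, read 7.07 and 7.62 in IL-15 against 10.86, 11.30 and 10.61 in IL-2 (-3.58 ± 0.29, 11.9-fold lower), and Shmt1 of one-carbon metabolism read 7.77 and 5.47 in IL-15 against 10.78, 10.64 and 11.72 in IL-2 (-4.43 ± 0.67). The heavy chain of that transporter, Slc3a2 (-1.10†), the glutamine transporter Slc1a5 (-1.55), the serine synthesis genes Phgdh (-1.44) and Psat1 (-0.92) and the pseudokinase Trib3 (-2.27†, at least 1.99-fold lower) were lower. Atf4 itself had a difference of -0.54 ± 0.27 and was not called. The letters TGATGNAAT, a form of the element that ATF4 and C/EBP factors bind, occurred on either strand in 4 of 29 windows of this list and in 32 of 7465 of all tested genes (0.4%). Only 1 of the 4, that of the alanyl-tRNA synthetase gene Aars, belonged to a gene that was lower (-1.01 ± 0.21†), and 100 bases around its match are shown in the same way, on the plus strand.
Aars (chr8:111033684-111033783): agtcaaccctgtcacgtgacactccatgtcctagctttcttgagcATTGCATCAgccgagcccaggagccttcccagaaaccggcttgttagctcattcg

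Energy metabolism held calls in both directions, most of them lower in the respiratory chain. Of 55 tested respiratory chain genes, 18 were lower (32.7%) and 2 were higher (3.64%), or 6 and 0 with the variance doubled, and the median was -0.42. The ATP synthase subunit Atp5g1 (-1.97 ± 0.30) and cytochrome c (Cycs, -1.27 ± 0.30†) were among those lower, and Ndufs1 (0.96†) and Sdha (0.59†) were higher. In glycolysis, Hk2, the inducible hexokinase, was measured at 7.69 and 7.13 in IL-15 against 9.05, 9.77 and 10.01 in IL-2 (-2.20 ± 0.34, 4.60-fold lower), while Pdk1, which diverts pyruvate from mitochondria, was higher at 12.27 and 12.35 in IL-15 against 10.10, 9.77 and 9.40 in IL-2 (2.56 ± 0.25, 5.89-fold). The lactate transporter Slc16a1 (-1.37) was lower, and Hif1a (1.35) and its target Kdm3a (2.60) were higher. Of 34 tested glycolysis and HIF target genes, 4 were higher (11.8%) and 7 were lower (20.6%), or 3 and 3 with the variance doubled. Not called were, for example, Ldha (-0.50 ± 0.18) and Pkm (-0.38 ± 0.20).

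Cholesterol and fatty acid genes were called in both directions, with 12 of 33 lower (36.4%) and 7 higher (21.2%), or 3 and 3 with the variance doubled. Scd1, a fatty acid desaturase, was lower (1.23 and 2.54 in IL-15 against 5.08, 8.14 and 5.31 in IL-2, at least 2.26-fold lower), a call lost with the variance doubled. Mvk (-1.42) and Fdps (-1.46) of the mevalonate pathway and the regulator Srebf2 (-1.18) were lower, and Hmgcs1 (1.28), Stard4 (2.0) and the elongase Elovl6 (2.61) were higher. The bright probe sets of Stard4 disagreed, at 2.0, -0.58 and 1.60. Letters of the sterol element, TCACNCCAC, occurred on either strand in 1 of 26 windows of this list, that of Hmgcs1, and in 1.4% of all windows. The efflux pump Abca1, a target of LXR, was higher (6.24 and 5.16 in IL-15 against 3.37, 2.50 and 2.33 in IL-2, at least 1.63-fold), and so were Smpdl3a (2.0 ± 0.20) and Mylip (1.56 ± 0.45†), which marks the LDL receptor for degradation. Of 7 tested LXR and efflux genes, 3 were higher and 0 were lower (2 and 0 with the variance doubled).

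The PI3K pathway held large differences in both directions. Of 26 tested genes, 11 were higher (42.3%) and 5 were lower (19.2%), or 8 and 3 with the variance doubled. The 26 and the 11 include Pdk1, the pyruvate gene already counted under glycolysis, which is not a PI3K pathway kinase. The catalytic subunit genes Pik3ca (2.74 ± 0.36), Pik3cg (2.33 ± 0.46) and Pik3cb (1.64), the regulatory subunit Pik3r1 (2.70 ± 0.25) and Rictor (3.19 ± 0.42), a part of mTOR complex 2, were higher, with Inpp4b. Akt1 (-1.12 ± 0.22), Akt2 (-0.79†), Mlst8 (-0.72†), Pik3r6 (-2.21) and Ddit4 (-2.31 ± 0.31), an inhibitor of mTOR complex 1, were lower. Mtor was not called (-0.45 ± 0.23).

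Genes that report ERK signals were more often lower than higher in IL-15. Of 30 tested AP-1 and ERK response genes, 11 were lower (36.7%) and 2 were higher (6.67%), or 6 and 1 with the variance doubled, with a median of -0.84. The phosphatase Dusp4 was measured at 5.37 and 6.05 in IL-15 against 7.41, 7.60 and 8.25 in IL-2 (-2.04 ± 0.33), and the AP-1 partner Batf3 read 3.84 and 2.64 in IL-15 against 6.29, 6.56 and 6.50 in IL-2 (-3.21 ± 0.35, at least 2.73-fold lower). Atf3 (-2.06, at least 3.40-fold lower), Spry4 (-1.65), Spry2 (-1.37), Egr3 (-1.38) and Batf (-0.80†) were lower too. Fos (-0.28 ± 0.46) and Jun (0.71 ± 0.44) were not called. Of 22 tested survival and apoptosis genes, 6 were higher (27.3%) and 5 were lower (22.7%), near the shares of all genes, or 2 and 1 with the variance doubled. Bcl2 was higher at 14.30 and 14.11 in IL-15 against 12.70, 12.15 and 12.53 in IL-2 (1.75 ± 0.23, 3.36-fold), with Mcl1 (0.67†), Birc2 (2.85) and Birc3 (2.0), while Bcl2l1 (-0.90 ± 0.27†), Pmaip1 (-1.48†) and Bak1 (-1.13) were lower.

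Transcription factors of the NKC lineage included 10 higher (25.6%) and 5 lower (12.8%) of 39 tested, which is 38.5% called against 43.8% of all genes, or 6 and 3 with the variance doubled. Tbx21, Eomes and Id2 were not called, with differences of -0.22 ± 0.25, 0.35 ± 0.23 and 0.05 ± 0.20. Ikzf2 (Helios) was higher, at 9.28 and 9.46 in IL-15 against 5.48, 5.19 and 6.03 in IL-2 (3.80 ± 0.28, 13.9-fold), as were Bach2 (2.07 ± 0.34), Zeb1 (1.69), Zeb2 (1.14†), Klf2 (1.82†) and Runx1 (1.10 ± 0.36†), a paralog of Runx3. Tox2 was lower, at 2.44 and 2.83 in IL-15 against 5.22, 7.67 and 7.45 in IL-2 (-4.15 ± 0.71, at least 3.44-fold lower), with Nfil3 (-1.57 ± 0.28), Nr4a2 (-1.12†) and Nr4a3 (-1.05†).

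Interferon-linked genes moved in both directions. Of 40 tested interferon-stimulated genes, 12 were higher (30%) and 13 were lower (32.5%), or 9 and 8 with the variance doubled. Lower were Bst2 (tetherin), measured at 5.70 and 5.04 in IL-15 against 9.62, 9.46 and 9.96 in IL-2 (-4.31 ± 0.27, 19.8-fold lower), Oasl2 (-3.19), Ifitm2 (-2.95), Ifitm3 (-2.84) and Isg20 (-2.19). The IL-15 mean of Oasl2 (4.21) was under log2 5. Higher were Samd9l (10.61 and 10.42 in IL-15 against 7.33, 7.38 and 7.83 in IL-2, 3.0 ± 0.23), Ifit2 (2.38 ± 0.38), the GTPase Gbp2 (2.17 ± 0.22) and Parp14 (1.92). The median span of the higher members was 30.7 kb and that of the lower members 9.8 kb. Among interferon regulatory factors, Irf4 (-2.69, at least 2.43-fold lower), Irf8 (-1.64 ± 0.29), Irf5 (-1.11†) and Irf3 (-0.79†) were lower (2 of them with the variance doubled) and 0 of 8 were higher.

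The GIMAP genes, a cluster of lymphocyte GTPases linked to survival, leaned to one side. All 8 had positive differences and 6 were called higher (4 with the variance doubled), with a median of 1.28. Gimap5 was measured at 11.09 and 9.92 in IL-15 against 8.01, 6.23 and 6.93 in IL-2 (3.45 ± 0.56, 10.9-fold) and Gimap8 at 14.08 and 13.80 in IL-15 against 11.74, 11.11 and 11.62 in IL-2 (2.45 ± 0.25). Their 2 IL-15 arrays exceeded all IL-2 arrays.

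Receptors of NKC were called no more often than other genes. Of 18 tested activating receptors and adaptors, 4 were higher (22.2%), namely Fcgr3 (CD16, 1.14 ± 0.21), Klrb1f (1.60†), Cd244a (0.91†) and Klre1 (0.73†). The only lower gene of that list was Klrb1b, which stands in the inhibitory list too and is best known as an inhibitory receptor. Klrk1 (NKG2D) read 8.81 and 9.01 in IL-15 against 8.63, 8.35 and 9.25 in IL-2 (0.17 ± 0.29) and was not called. Of 16 tested inhibitory receptors, 4 were higher (25%) and 3 were lower (18.8%), which is 43.8% called as over all genes, and 1 and 1 remained with the variance doubled. Klrc1 (NKG2A) was higher at 14.07 and 13.72 in IL-15 against 11.95, 11.08 and 12.19 in IL-2 (2.15 ± 0.35, 4.44-fold), with Klra7 (1.48†), Cd274 (0.91†) and Cd200r1 (2.22†), and Klrb1b, Klrg1 (-1.57 ± 0.49†) and Klra5 (-1.08†) were lower. The bright probe sets of Cd200r1 disagreed, at 2.22 and -0.61. Lag3 (-3.12 ± 0.40, adjusted p = 0.00169) and Havcr2 (-3.01 ± 0.71, adjusted p = 0.0145) had group means under log2 5 in both cultures and were therefore not called.

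Of 22 tested integrin and adhesion genes, 6 were higher (27.3% against 22.5% of all genes) and 2 were lower (9.09%), or 3 and 0 with the variance doubled. The lower genes were Itga3 (-0.78†) and Alcam (-1.15†), and the other bright probe sets of Alcam read 1.15 and 0.66. The integrin alpha 4 gene Itga4 was higher at 11.57 and 11.71 in IL-15 against 9.02, 7.85 and 7.89 in IL-2 (3.39 ± 0.38, 10.5-fold), and its partner Itgb1 was higher too (1.73 ± 0.21). Itga6 (1.54) and Cd48 (1.22†) were higher. Of 15 tested chemokine receptor and homing genes, 2 were higher and 1 was lower (20% called), and 0 were called with the variance doubled. Gpr183 (1.56†) was among the higher, and Cxcr4 was lower (4.92 and 4.85 in IL-15 against 5.46, 6.86 and 6.82 in IL-2, -1.49†, at least 2.60-fold lower). Among 19 tested MHC class I genes, 1 was higher and 2 were lower (15.8% called). The differences were 0.09 ± 0.18 for B2m and 0.09 ± 0.19 for H2-K1, neither called, although H2-Q10 (-2.69, at least 4.02-fold lower) and Calr (-0.93) were lower.

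Some transcripts best known from other cells were among those lower in IL-15. Besides Ctsg and Blk these were the basophil protease gene Mcpt8 (1.94 and 3.17 in IL-15 against 5.84, 7.98 and 6.66 in IL-2, at least 3.54-fold lower), the MHC class II invariant chain Cd74 (5.85 and 5.40 in IL-15 against 6.52, 8.02 and 8.49 in IL-2, -2.05 ± 0.55†) and Cd3e (5.45 and 5.86 in IL-15 against 6.33, 7.29 and 7.36 in IL-2, -1.34 ± 0.35†). Of 12 tested dendritic cell and MHC class II markers, 3 were lower (25%, against 21.3% of all genes) and 0 higher. Of 4 mast cell and basophil markers, 1 was lower and 1, Kit, higher. Of 2 markers in each of the B cell and granulocyte lists, 1 was lower and 0 higher. Of 4 stromal markers, 1 was higher and 0 lower. The summed signal of the mast cell and basophil list was 11.98 and 12.27 in IL-15 and 10.90, 11.64 and 11.02 in IL-2. It was carried by Kit alone, at 11.94 and 12.23 in IL-15 against 10.78, 11.47 and 10.88 in IL-2. The summed signal of the granulocyte list was 8.61 and 8.33 in IL-15 and 9.55, 9.17 and 8.49 in IL-2. It was carried mostly by Mmp9, at 8.29 and 7.88 in IL-15 against 9.33, 8.48 and 8.01 in IL-2. That of the T cell list, carried by bright genes such as Thy1, Cd28, Zap70, Icos and Trgv4, was 14.7 to 14.79 in all 5 arrays. In the T cell list, Icos (1.5) and Cd28 (1.42†) were higher and Lat (-0.72†) was lower with Cd3e, while Cd3d (0.07 ± 0.65) and Cd3g (-0.05 ± 0.61) were not called. Macrophage lysozymes Lyz1 (7.43 and 7.58 in IL-15 against 10.89, 11.56 and 7.85 in IL-2) and Lyz2 (5.18 and 6.72 in IL-15 against 8.18, 9.43 and 6.30 in IL-2) varied most within IL-2 and were not called. The part of other cells in these values was not tested.

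The direction of a difference moved with the genomic span of the gene, its length from start to end with introns. The 9089 tested genes with a span in RefSeq (GRCm38.p6) had a median of 23.2 kb. Genes higher in IL-15 had a median of 45.9 kb and genes lower in IL-15 one of 13.3 kb, against 21.1 kb for genes not called. In the fifth with the shortest spans (median 4.5 kb), 5.2% were higher and 35.2% were lower, and the median difference was -0.46. In the fifth with the longest spans (median 105 kb), 41.7% were higher and 9.5% were lower, and the median difference was 0.53. Across genes, which are not independent replicates, Spearman's rho of difference and log span was 0.381 in KO and 0.234 in WT.

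**Figure D4:**
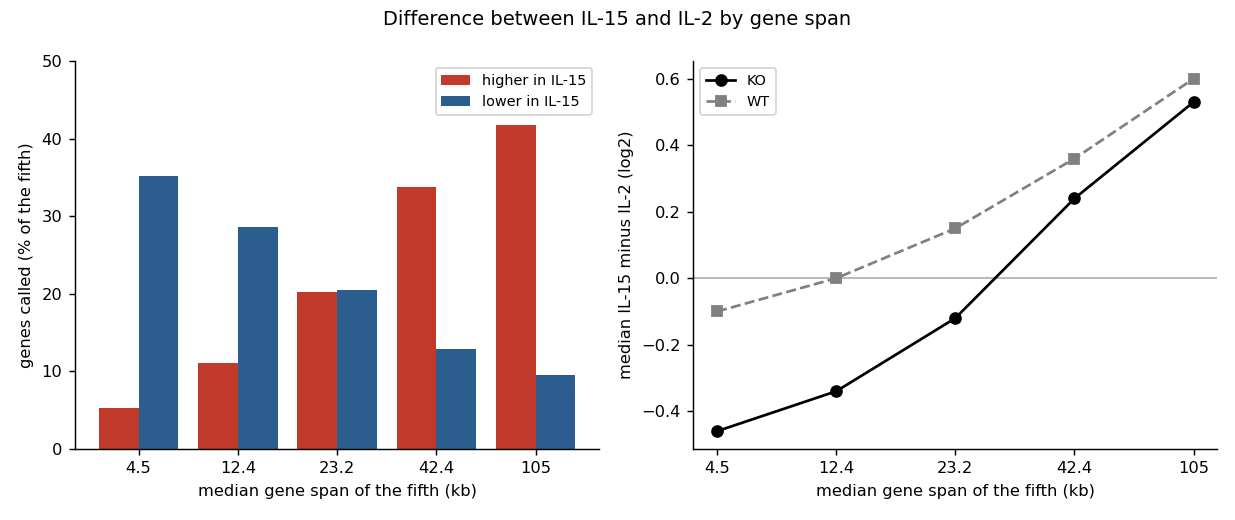
Left, percentage of tested genes called higher or lower in IL-15 in KO NKC (y axis, from 0) in 5 equal groups of genes ordered by genomic span (x axis, median span in kb), and right, median difference (log2) of the same groups in KO (circles) and WT (squares). The share of higher genes climbed from 5.2% to 41.7% and that of lower genes dropped from 35.2% to 9.5%, and the medians climbed in both genotypes.

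Group differences were therefore also read against the median of all tested genes of similar span (the same of 5 equal groups). The G1/S list then had a median of -0.85, ribosome biogenesis -0.85, amino acid genes -0.85, chemokines -1.77 and GIMAP genes 1.74. The respiratory chain moved from -0.42 to -0.06, the PI3K list from 0.41 to -0.02 and the granule list from -0.39 to -0.07. The granule transport list had 0.27 before and 0.30 after. RNA integrity read from control probe sets was not the same in all KO arrays: the 3′ minus 5′ signal of Gapdh was 1.72 and 2.55 in IL-15 and 1.51, 1.42 and 1.27 in IL-2, and that of Actb was 1.70 and 1.54 in IL-15 and 1.51, 1.47 and 1.49 in IL-2. The Gapdh signal of the WT arrays in IL-15 was 0.96 and 0.14, the mirror of the KO arrays, so the array that differed cannot be named. The part of span and RNA integrity in the results was not tested. Where a called gene had several bright probe sets, all had the same sign for 978 of 1154 genes higher in IL-15 (84.7%) and 576 of 677 genes lower (85.1%).

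Whether KO cells responded to the change of cytokine in another way than WT cells was tested on the KO minus WT differences of the numbered pairs, 2 in IL-15 and 3 in IL-2. With limma, 0 of 9110 genes (0%) passed the adjusted p, the smallest being 0.0547, and 1083 had an unadjusted p under 0.05. The values of the leading genes are therefore given side by side. Il7r differed by 4.50 in KO and 4.35 in WT, Esr1 by 4.68 and 4.54, Bcat1 by -8.27 and -7.74 and Zbtb32 by -5.57 and -5.47. Some genes had a wide gap between genotypes and WT values that hardly differed between cultures. Sh3d19 was measured in WT at 2.91 and 2.80 in IL-15 against 1.96, 2.96 and 2.82 in IL-2, and the KO response minus the WT response was -6.79 ± 0.65 (adjusted p = 0.0547). Cd163l1 was at 6.62 and 6.6 in IL-15 against 6.33, 6.12 and 5.85 in IL-2 in WT (-5.08 ± 0.43, adjusted p = 0.0547). For both genes the 3 KO arrays in IL-2 stood apart from all other arrays of the series.

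Further genes had unequal values that did not pass the test. Il2ra differed by -2.23 in KO and by -5.70 in WT (3.47 ± 0.60, adjusted p = 0.198), and Batf3 by -3.21 and -7.72 (4.51 ± 0.71, adjusted p = 0.162). Padi4 differed by 5.39 in KO and by -1.08 in WT (6.47 ± 1.14, adjusted p = 0.215). Xcl1 differed by -2.18† in KO and 1.03 in WT (-3.21 ± 0.92, adjusted p = 0.315). With a filter at log2 7 in place of log2 5, 6 genes passed: Cd163l1, Sh3d19, Dhrs3 and Ret had a more negative response in KO, and Fads3 and S1pr3 a more positive one. For Dhrs3, Ret, Fads3 and S1pr3 the KO cultures hardly differed (0.118, 0.107, -0.168 and 0.018). The WT cultures did, by 5.421, 4.168, -5.709 and -5.434. Ret passed this filter only through the WT arrays in IL-15 (8.47 and 8.31). Fads3 and S1pr3 were under log2 3 in all KO arrays and in WT cells in IL-15, and above log2 7 in WT cells in IL-2. These 6 were named after their values were seen.

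**Figure D5:**
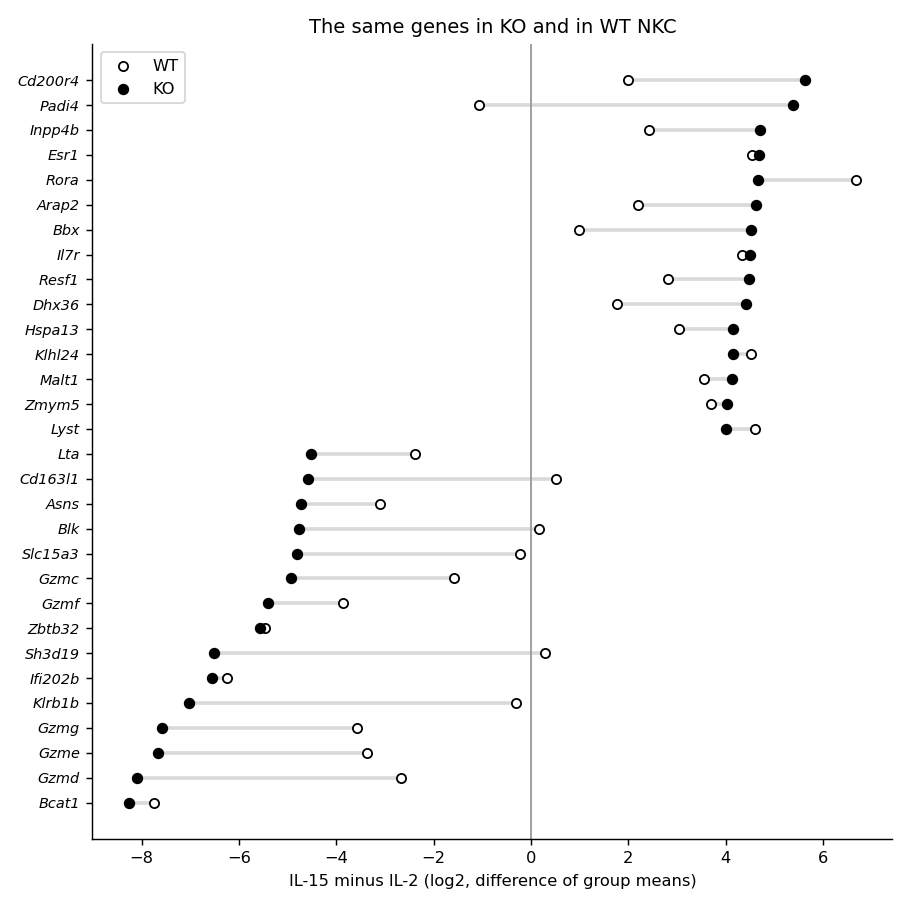
Difference between group means in IL-15 and IL-2 (x axis, log2) in KO (filled circles, 2 and 3 arrays) and WT NKC (open circles, 2 and 3 arrays) for the 30 genes with the largest differences in KO, with a grey line between the genotypes. Il7r, Esr1, Zbtb32 and Bcat1 had nearly the same value in both, and Padi4, Sh3d19, Blk and Cd163l1 were far apart. These genes were chosen for their KO value, and none of the gaps passed the adjusted test.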

How the data were processed

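RNA of splenic NKC from 10 samples had been hybridised to Affymetrix A430.2 arrays of 45101 probe sets. Per cytokine there were 3 (IL-2) or 2 (IL-15) numbered WT and KO samples. The labels name the samples as separate but not the animals behind each, so the spread between these samples may be partly technical. The p-values rest on what is left of that spread after the removal of what WT and KO pairs shared. They are therefore too small, and sizes carry more weight. The deposited values are log2 signals that the authors made by GC-RMA in Partek, with versions and background settings not given in the sources used here. They are normalized intensities without read depth, so the number of arrays limits the precision. A removal of what WT and KO pairs shared was read from the values and is not described in those sources.

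Each of 34958 probe sets with 1 gene symbol was assigned to its gene, 932 with several symbols and 9211 without one were left out, and the probe set with the highest mean over all 10 arrays stood for the gene. Genes under log2 5 in more than 8 arrays and genes of chromosomes X and Y were removed, because sex differed with culture. KO arrays were compared with limma 3.58.1 in R 4.3.3 (lmFit and eBayes, no covariate, 3 residual degrees of freedom), two-sided, with Benjamini-Hochberg adjustment over all 9110 genes. The difference between the KO and the WT response was fitted in the same way on the 5 pair differences. Where a called gene had a group mean under log2 5, its fold was computed against log2 5 and is a lower limit. The code was tested on simulated data. Alternatives covered normalization, filters, probe set choice, variance, the replicate block and each left-out array.

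Named were the 15 highest and 15 lowest called genes without overlap of the arrays, all tested receptor chain and JAK-STAT genes, and in each other list up to 4 called members in each direction with the largest differences. Other list members were named for their known roles after their values were seen. The gene lists and the comparison were chosen with earlier results of these data known.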

Additional observations from a re-analysis of the deposited data

Results flagged for a closer look

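The 2 cultures differed in transcripts that the comparison left out. The X-linked RNA Xist had a mean of 14.56 over the 2 KO arrays in IL-15 and of 4.91 over the 3 KO arrays in IL-2, and the Y-linked gene Eif2s3y had means of 2.36 and 7.88. The arrays of the cultures did not overlap for either gene. The signal of Xist in IL-15 and of Eif2s3y in IL-2 therefore stands outside the measurement of the cytokine, and sex, animals and culture cannot be told apart.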

How the results depend on the processing

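The count of genes higher in IL-15 (2050) became 1242 with the residual variance doubled and 3819 among single probe sets, and that of genes lower (1942) became 856 and 3019. Without 1 array the counts ran from 1235 (without IL-15 array 1) to 2006 for higher and from 869 (without IL-15 array 2) to 1966 for lower genes, with the lone IL-15 array assumed to vary like the IL-2 arrays. Quantile normalization gave 1887 higher and 2601 lower genes and centring on the array medians 2158 and 1581. The count of genes whose response differed between KO and WT (0) became 6 with a filter at log2 7 and 1083 at unadjusted thresholds, and ran from 0 to 1 without 1 pair, the 1 being Klrb1b without IL-15 pair 2. The cause of these moves was not tested.

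Whether replicate numbers pair KO arrays across cultures could not be settled from the values. The deviations of same-numbered arrays correlated at -0.021 and 0.331, but what WT and KO arrays of a number shared had been removed before deposit. With the replicate block the KO arrays gave 2207 higher and 2221 lower genes and all 10 arrays 1559 and 1380, while the test against WT without the replicate block called 1133. Both fits over all 10 arrays took the opposite deviations of WT and KO arrays as independent values. The test without the block thus had 6 residual degrees of freedom where the pairs hold 3, and its count cannot be set beside 0. With the replicate block on the KO arrays, Stat6, at 0.02, turned to -0.112.

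Some values turned sign, namely those of Alcam (-1.15 as reported, called lower), Tspan32 (0.73, called higher), Pf4 (0.84), Stat3 (-0.30) and Socs2 (0.27) and, nearer 0, of Il15ra, Il4ra and Stat6. Under quantile normalization Il15ra read -0.292, Il4ra -0.033 and Stat6 -0.052. With the mean over probe sets, Alcam read 0.128, Stat3 0.507, Stat6 -0.036 and Tspan32 -0.035. Without 1 array Il15ra ran from -0.09 to 0.069, Il4ra from -0.102 to 0.352, Stat6 from -0.112 to 0.155, Socs2 from -0.213 to 0.746 and Pf4 from -0.771 to 2.448.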

Other observations

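Stress and redox genes were called in both directions in KO cells. Of 18 tested heat shock and stress genes, 3 were higher (16.7%) and 6 were lower (33.3%) in IL-15, or 1 and 5 with the residual variance doubled. A dagger (†) marks a call lost in that repeat. Sdf2l1, an endoplasmic reticulum chaperone partner, differed by -2.31 ± 0.35, and the targets of NRF2 Nqo1 and Hmox1 differed by -2.10 ± 0.26 and -1.81 ± 0.33. The IL-15 means of Nqo1 (3.58) and Hmox1 (4.40) were under log2 5. Txnip, an inhibitor of thioredoxin, was higher (1.81 ± 0.53†), as were Dnajb4 (1.41 ± 0.26) and Hsp90aa1 (0.73 ± 0.23†). Hspa5 and Xbp1 were not called (0.34 ± 0.22 and -0.58 ± 0.19).

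Of 19 tested NF-kB genes, 3 were higher (15.8%) and 4 lower (21.1%), which is 36.8% called against 43.8% of all genes, and 2 and 0 were called with the variance doubled. Cflar, which blocks caspase-8, was higher (1.39 ± 0.30†) with Birc2 and Birc3, and the inhibitor genes Nfkbid (-1.22 ± 0.29†) and Nfkbib (-0.84 ± 0.19†), Traf2 (-0.94 ± 0.23†) and Map3k14 (-0.64 ± 0.19†) were lower. The bright probe sets of Cflar disagreed, at 1.39, -0.63, 1.03, 1.51 and 0.06. Nfkbia differed by 0.06 ± 0.19. Among 9 tested TNF receptor genes (0 higher and 1 lower with the variance doubled), Cd27 was higher (0.79 ± 0.20†) and Tnfrsf9 (-1.83 ± 0.28) and Tnfrsf21 (-1.20 ± 0.29†) were lower. Of 8 tested reference genes, Sdha was higher (0.59 ± 0.19†) and Polr2a lower (-0.94 ± 0.20†), while Actb (0.08 ± 0.18), Eef1a1 (0.16 ± 0.18), Rplp0 (-0.06 ± 0.19) and Gapdh (-0.39 ± 0.18) were not called.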
